A study of Mus musculus with 24 samples.

Results

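S100 proteins are small calcium-binding proteins with EF-hand motifs that mostly work as dimers and change the activity of partner proteins when calcium binds. Most of their genes lie side by side in clusters, and single members mark different cells: S100a8 and S100a9 form calprotectin, the abundant cytosolic complex of neutrophils, S100a10 pairs with annexin A2 at the plasma membrane, S100a4 and S100a6 are found in fibroblasts and many dividing cells, and S100a14 and S100a16 are expressed in epithelia. In the kidney the best known relative is S100g, or calbindin-D9k, a carrier of calcium in the distal tubule. The RNA levels of 10 S100 genes of mouse (S100a1, S100a4, S100a6, S100a8, S100a9, S100a10, S100a11, S100a13, S100a14 and S100a16) were followed here in whole kidneys. They were chosen by gene symbol from the 54532 genes counted, with S100a14 selected on its increase in cystic kidneys, so that values for cystic against control kidneys of the unedited line are descriptions with no test.

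The 24 RNA-seq libraries each came from the kidney of another C57BL/6 mouse, aged 18 days. Common to all was RC, a missense allele of Pkd1 that yields less mature polycystin-1, the protein affected in most polycystic kidney disease. In RC/+ mice (labelled control) the second allele was floxed and intact, and in RC/- mice (labelled cystic) it was deleted by Ksp-Cre, which is active in kidney tubules, so that Cre and the cystic genotype cannot be told apart. In the edited lines D18 and D53 the RC allele lacked the motif that miR-17 binds, and each line came from 1 founder (founder 3 for D18 and founder 2 for D53), so that line and edit cannot be told apart. There were 3 mice in each of RC/+, RC/+ D18 and RC/+ D53, and 5 in each of RC/-, RC/- D18 and RC/- D53. Library totals were 20.4 to 30.8 M counts. The kidney tubule markers Umod and Slc12a1 had counts in every library. In libraries 20 to 27 (3 of the RC/- D18 group and every RC/- D53 library), 10 skeletal muscle markers summed to 203.5 to 262.5 CPM (counts scaled to the library total), against 23.5 to 41.4 CPM in the other 16 libraries. These transcripts move with the edited cystic groups, and their part in the differences described was not tested unless a value without those libraries is given. Whole-kidney RNA cannot tell fewer cells of a type from less RNA per cell.

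All 10 genes lie on chromosome 3 (GRCm38). A first cluster of 184.7 kb, from 90511034 to 90695721, holds in this order S100a1, S100a13, S100a14, S100a16, S100a4, S100a6, S100a8 and S100a9. S100a11 and S100a10 lie apart in a second stretch of 44.2 kb, from 93520488 to 93564643. S100a1 and S100a9 are on the minus strand and the other members on the plus strand. S100a1 and S100a13 are transcribed away from each other, and their promoter windows of 300 bases share 204 bases. S100a4 shares 51.7% of its exon bases with Gm42674 on the same strand, a gene listed at 0 counts in all 24 libraries, and S100a11 has a pair of copies that resemble it, Gm12854 (98.99% identity over 297 bases) and Gm7665 (98.65%). No member other than S100a4 shares exon bases with another gene.

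Promoter windows, from 250 bases before the annotated start to 50 after it, were taken from RefSeq (GRCm38.p6) and were found for 8 of the 10 members, as 9 windows because S100a16 has a second start. No window was listed for S100a10 or S100a14. The 4 windows printed belong to the pairs of genes that, as described further on, deviated together most closely from mouse to mouse, S100a11 with S100a16 and S100a8 with S100a9. Capitals mark matches, on either strand, to TATAAA (as in a TATA box), TGANTCA (the AP-1 site with its middle base left open), CACGTG (an E-box), GGGCGG (a GC box) or TTCNNNGAA (a site of STAT factors), and no matches overlapped.
S100a11, chr3:93520246-93520545, plus strand: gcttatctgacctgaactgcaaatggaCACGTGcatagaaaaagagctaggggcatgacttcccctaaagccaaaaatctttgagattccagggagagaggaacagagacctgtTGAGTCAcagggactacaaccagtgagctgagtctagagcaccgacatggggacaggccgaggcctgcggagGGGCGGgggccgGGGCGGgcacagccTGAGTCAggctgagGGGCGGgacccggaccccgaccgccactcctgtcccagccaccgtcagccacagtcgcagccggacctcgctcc
S100a16, chr3:90540896-90541195, plus strand: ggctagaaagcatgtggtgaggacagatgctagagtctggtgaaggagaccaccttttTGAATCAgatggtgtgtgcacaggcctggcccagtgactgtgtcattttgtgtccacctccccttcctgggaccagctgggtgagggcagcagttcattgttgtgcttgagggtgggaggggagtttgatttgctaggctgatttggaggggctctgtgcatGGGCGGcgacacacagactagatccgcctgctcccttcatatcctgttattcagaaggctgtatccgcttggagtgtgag
S100a8, chr3:90668821-90669120, plus strand: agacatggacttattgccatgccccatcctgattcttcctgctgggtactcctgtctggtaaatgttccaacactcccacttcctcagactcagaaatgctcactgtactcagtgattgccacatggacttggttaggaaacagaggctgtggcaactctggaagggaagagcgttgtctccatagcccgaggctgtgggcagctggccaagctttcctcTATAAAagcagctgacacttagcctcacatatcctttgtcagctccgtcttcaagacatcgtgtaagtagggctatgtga
S100a9, chr3:90695672-90695971, minus strand: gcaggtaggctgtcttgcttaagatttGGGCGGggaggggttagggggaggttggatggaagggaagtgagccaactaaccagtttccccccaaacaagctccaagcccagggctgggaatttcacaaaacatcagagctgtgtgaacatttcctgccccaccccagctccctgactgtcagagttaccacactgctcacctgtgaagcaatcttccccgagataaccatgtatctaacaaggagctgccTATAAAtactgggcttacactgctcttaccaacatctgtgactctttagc

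The letters TATAAA stood in the windows of S100a8 and S100a4, at 30 and 31 bases before the start, in that of S100a9 at the start itself, and in 13.6% of all 32851 promoter windows. The letters TGANTCA occurred in S100a11, as TGAGTCA at 136 and 38 bases before the start. In the printed window of S100a16 they occurred as TGAATCA, with another middle base, at 192 bases before its second start. Some form of TGANTCA was in 7.81% of all windows. An E-box was found in S100a11 and S100a6 (7.15% of all windows), and a GC box in S100a11, S100a16 and S100a9 (35.7%). None of the 9 windows held the STAT letters, which occurred in 8.30% of all windows. The window at the first start of S100a16, where its annotation begins, held none of the motifs and is not printed. Such matches describe the sequence and do not show that a factor binds there.

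Compared per length, as CPM per kilobase of exon, the members spanned a wide range in control kidneys. S100a11 was highest in RC/+ at 284 ± 4.54, followed by S100a1 at 249 ± 11, S100a10 at 88.7 ± 8.39 and S100a16 at 70.5 ± 5.71 (mean ± SD, n = 3). Each of these 4 lay above the next by more than the summed SDs. S100a6 (35.1 ± 10.6) and S100a13 (32.5 ± 1.11) came next and did not differ beyond their spread. S100a14 (2.91 ± 0.276), S100a9 (2.24 ± 0.879) and S100a8 (1.26 ± 0.921) were low, and neither S100a14 and S100a9 nor S100a9 and S100a8 differed beyond their spread. S100a4 was last at 0.0963 ± 0.0837. In RC/- S100a14 was at 68.2 ± 22.6, at rank 6 in place of rank 7, within the spread of S100a13 at 41.4 ± 5.82. S100a11 led again at 1034 ± 154 and made up 54.4% of the summed level of the 10 genes, against 37.0% in RC/+ (SD, n = 5 in RC/-).

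**Figure D1:**
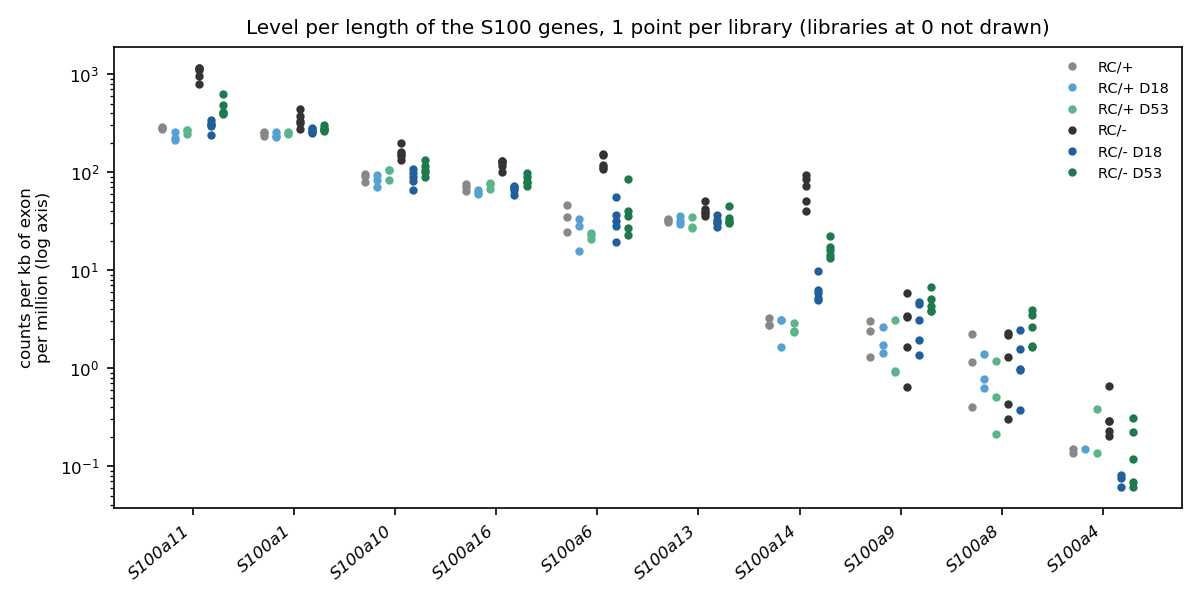
Level per length (CPM per kilobase of exon) of the 10 S100 genes on a log axis, with 1 point per library coloured by group (libraries at 0 not drawn) and genes ordered by their mean in RC/+. S100a14 is the member that leaves the low part of the range, with group means of 2.91 in RC/+ and 68.2 in RC/-.

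The comparison of RC/- with RC/+ asks how the family stood in cystic against control kidneys with the motif intact. S100a14, an epithelial member, was at 4.78, 4.73 and 5.58 CPM in the RC/+ kidneys and at 68.8, 87.2, 124, 149 and 160.0 CPM in the RC/- kidneys, so every cystic kidney was far above every control. Its mean was 23.4 times that of RC/+, and the log2 fold change was 4.46 ± 0.25 (standard error), which ranked 11 among the 22570 genes tested. Arhgap36 (4.48) stood just before it and Cyp11b1 (4.42) just after.

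S100a11, a partner of annexin A1, was at 147, 146 and 142 CPM in RC/+ and 411, 485, 566, 592 and 588 CPM in RC/- (log2 fold change 1.85 ± 0.13). S100a6, known as calcyclin, was at 33.8, 62.7 and 47.6 CPM in RC/+ and 163, 208, 149, 205 and 156 CPM in RC/- (1.91 ± 0.33). For both genes the lowest cystic kidney was more than 2 times the highest control. S100a10, the partner of annexin A2, was at 109.7, 96.4 and 116 CPM in RC/+ and 179, 160.3, 196, 242 and 184 CPM in RC/- (0.83 ± 0.15). S100a16 was at 114, 104 and 123 CPM in RC/+ and 163, 186, 211, 210.4 and 199.96 CPM in RC/- (0.76 ± 0.10). The differences of S100a1, best known from muscle cells, and S100a13, a protein of a release complex for growth factor Fgf1, were smaller, with log2 fold changes of 0.46 ± 0.09 and 0.34 ± 0.13. S100a1 was at 176, 164 and 179 CPM in RC/+ and 192, 221, 303, 257 and 229.5 CPM in RC/-. S100a13 was at 23.9, 22.3 and 23.4 CPM in RC/+ and 27.7, 25.8, 30.0, 36.6 and 28.2 CPM in RC/-. For both, the groups did not overlap, although the gap was narrow.

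The calprotectin genes overlapped between RC/+ and RC/-. S100a8 was at 1.55, 0.796 and 0.281 CPM in RC/+ and 0.299, 0.211, 0.914, 1.51 and 1.59 CPM in RC/-, and S100a9 at 1.59, 1.24 and 0.682 CPM and 0.855, 0.338, 1.75, 1.76 and 3.05 CPM. In both genes RC/- held the lowest and also the highest library of the 2 groups, and the log2 fold changes were -0.04 ± 0.60 and 0.16 ± 0.50. Counts behind these values were small, 5 to 69 per library for the 2 genes in RC/-. As a description only, since this contrast served to choose the genes, 7 of the 10 members, S100a14 among them, were higher in RC/- at an adjusted p below 0.05 (limma-trend, Benjamini-Hochberg), beside 25.5% of all genes tested, and 8 had no overlap between groups in that direction, beside 26% of all genes. Nothing is read from these counts. The median log2 fold change was 0.80 over the members and 0.14 over all genes, the last of which TMM factors moved to 0.01. With those factors S100a13 was at 0.20 (SE 0.13) and no longer among those counted, as in 7 other settings, with values of 0.21 to 0.36, and 3844 genes were higher and 3896 lower in RC/-, against 5753 and 2744 with total counts.

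**Figure D2:**
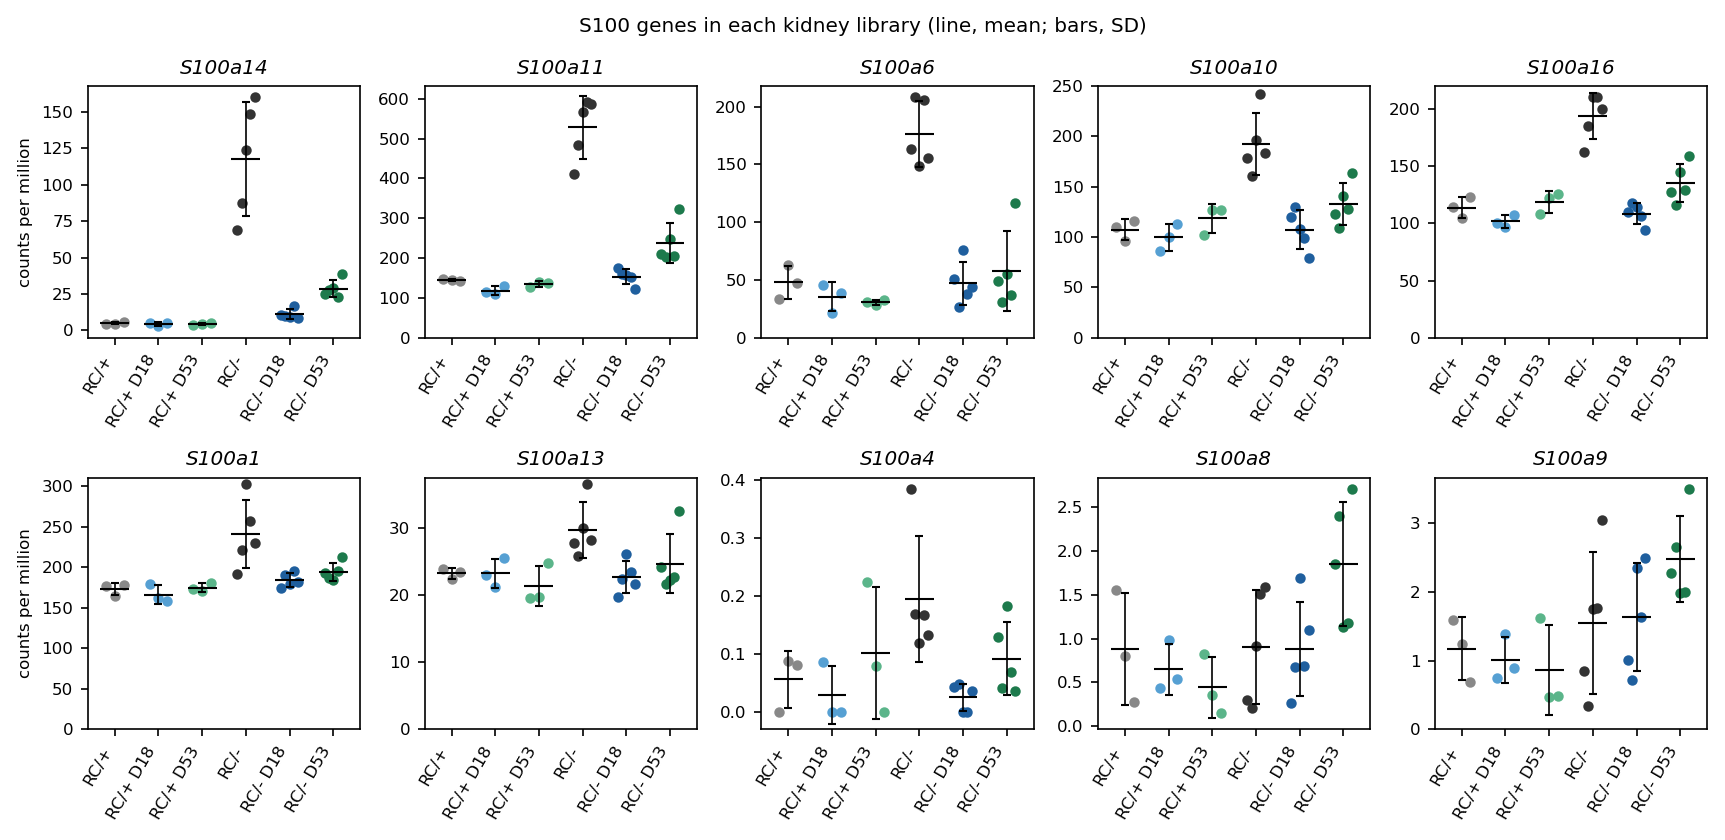
CPM of each S100 gene, 1 point per library in the 6 groups, with a line at the group mean and bars of 1 SD (n = 3 in RC/+ groups, n = 5 in RC/- groups). The 5 RC/- libraries of S100a14 lie between 68.8 and 160.0 CPM and those of the edited cystic groups between 8.60 and 38.7 CPM, while S100a8 and S100a9 overlap between RC/+ and RC/-.

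Markers of other cells differed between the same groups. The summed level of 9 collecting duct markers was 1194 to 1487 CPM in RC/+ and 2657 to 5044 CPM in RC/-, that of 13 macrophage and monocyte markers 290.3 to 309.3 and 607 to 1113 CPM, and that of 9 proximal tubule markers 6924 to 7494 and 1450 to 3601 CPM. None of the markers in these lists was at 0 in either group. For 9 fibroblast markers the sums were 1604 to 2196 and 3437 to 5696 CPM, also without a gene at 0. The 7 urothelium markers overlapped, at 61.3 to 145 and 34.2 to 333 CPM. Their part in the S100 values was not tested.

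RC/- D18 and RC/- D53 were each set against RC/- to ask how the levels differed in cystic kidneys without the miR-17 motif. Both comparisons use the RC/- libraries on which S100a14 was selected, so its values here are also a description. S100a14 was at 10.8, 10.2, 8.95, 17.1 and 8.6 CPM in RC/- D18 and at 24.9, 27.7, 29.5, 23.2 and 38.7 CPM in RC/- D53. No edited kidney reached the lowest RC/- kidney, and the log2 fold changes against RC/- were -3.37 ± 0.22 for D18 and -1.98 ± 0.22 for D53.

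Of the other members, S100a6, S100a11 and S100a16 were lower than RC/- in every kidney of both edited lines, while S100a1, S100a4, S100a10 and S100a13 overlapped RC/- in 1 or both. S100a11 was at 176, 161, 157, 152 and 122 CPM in RC/- D18 (log2 fold change -1.78 ± 0.12, adjusted p = 6.8e-11) and at 211, 202, 247, 206 and 323 CPM in RC/- D53 (-1.16 ± 0.12, adjusted p = 9.7e-08, both limma-trend). S100a6 was at 50.5, 26.5, 75.9, 38.2 and 43.8 CPM in RC/- D18 (-1.98 ± 0.28, adjusted p = 4.7e-06, limma-trend) and at 49.3, 31, 54.9, 37.2 and 117 CPM in RC/- D53 (-1.76 ± 0.28, adjusted p = 4.2e-05). For both genes all edited kidneys were below all RC/- kidneys, and RC/- D53 replicate 27 was the edited kidney nearest to them.

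S100a10 was at 119.5, 130.3, 108, 98.8 and 79.6 CPM in RC/- D18 (-0.85 ± 0.13, adjusted p = 7.2e-06, limma-trend) and at 123, 109, 141, 128 and 163 CPM in RC/- D53 (-0.53 ± 0.13, adjusted p = 0.0021), where replicate 27 overlapped RC/-. S100a16 was at 110.3, 118, 114, 106 and 93.9 CPM in RC/- D18 (-0.83 ± 0.08, adjusted p = 3.4e-08, limma-trend) and at 127, 116, 145, 129 and 159 CPM in RC/- D53 (-0.52 ± 0.08, adjusted p = 4.6e-05), below RC/- in every kidney. S100a1 was at 175, 189.8, 179, 195 and 182 CPM in RC/- D18 (-0.37 ± 0.08, adjusted p = 0.00067, limma-trend) and at 193, 187, 184, 196 and 212 CPM in RC/- D53 (-0.29 ± 0.08, adjusted p = 0.0074), with 1 or more edited kidneys inside the RC/- range. S100a13 was at 19.7, 22.3, 26.1, 23.4 and 21.6 CPM in RC/- D18 (-0.38 ± 0.11, adjusted p = 0.0063, limma-trend) and at 24.2, 21.7, 22.3, 22.7 and 32.4 CPM in RC/- D53 (-0.27 ± 0.11, adjusted p = 0.064), where it missed the threshold. Scaling by TMM factors ended the call of S100a13 in D18 (adjusted p = 0.056) and of S100a1 in D53 (adjusted p = 0.1).

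Leaving out S100a14, which was selected on the RC/- libraries, 7 of 9 members were lower in RC/- D18 at an adjusted p below 0.05, beside 26.9% of all genes tested, and 5 of 9 in RC/- D53, beside 18.9%. No overlap with RC/-, in the direction of lower, was seen for 5 of the 9 in RC/- D18 (18.8% of all genes) and for 3 in RC/- D53 (11.8%). S100a4, the lowest member, was among the 7 and the 5 in D18. It met the level limit for testing over all 24 libraries, those of RC/- included. With only RC/- D18 and RC/+ D18 in the model, 9 of the 10 members met it. The RC/- libraries are shared with the contrast that chose the genes. Libraries 20 to 27 were also used as a covariate, whose effect is estimated from the 5 RC/- D18 libraries alone. With it the count for D18 was 6 of 9, S100a4 being lost, and that for D53 was 2 of 9 (S100a6 and S100a11). Over all genes the lower calls fell likewise, from 6067 to 3764 of the 22570 tested in D18 and from 4262 to 936 in D53. S100a10 in D53 moved to -0.13 with that covariate (adjusted p = 0.76, limma-trend). The median over all 10 members, S100a14 included, was -0.84 in D18 and -0.53 in D53, against -0.10 and -0.08 over all genes. With TMM factors 4400 genes were lower and 4443 higher in D18, and 2966 lower and 3378 higher in D53, in place of 6067 and 3238 in D18 and 4262 and 2543 in D53.

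**Figure D3:**
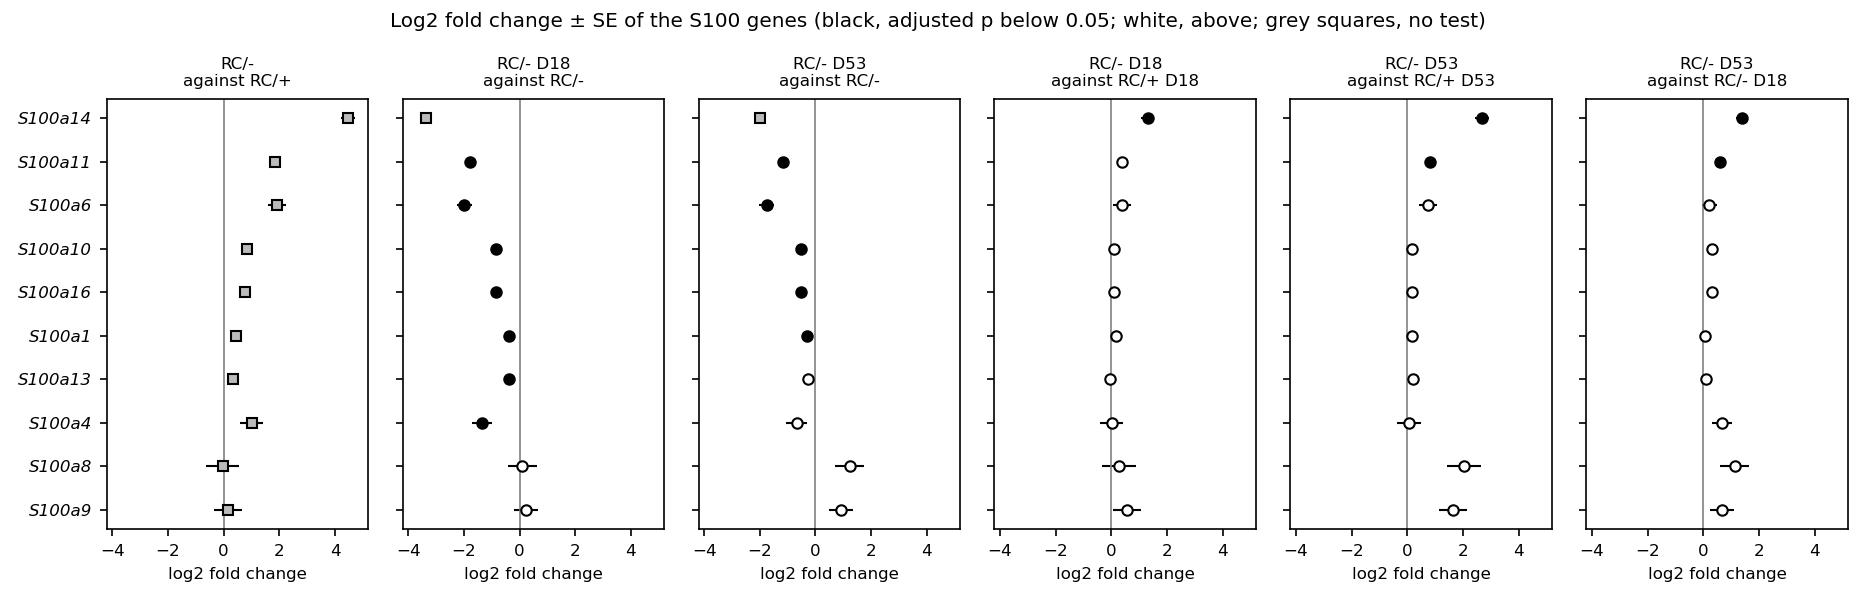
Log2 fold changes (points) with their standard errors (bars) of the 10 S100 genes in 6 comparisons from the limma-trend fit, with black points at an adjusted p below 0.05, white points above it and grey squares where the gene or comparison served to choose the genes. Against RC/-, S100a14, S100a11 and S100a6 lie farthest to the left, at -3.37, -1.78 and -1.98 in D18 and at -1.98, -1.16 and -1.76 in D53, while within the edited lines S100a14 is farthest to the right in D53 at 2.67.

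S100a4 was close to the limit of detection. This gene, known from fibroblasts and myeloid cells, had 0, 2 and 2 counts in RC/+ and 9, 4, 3, 4 and 3 counts in RC/-. It had 1, 1, 0, 0 and 1 counts in RC/- D18 and 4, 1, 5, 2 and 1 in RC/- D53. The RC/- libraries lay above RC/+ and RC/- D18 but overlapped RC/- D53. The gene was at 0 in 6 of the 24 libraries and at or under 3 counts in 18, where 3 counts correspond to 0.0973 to 0.147 CPM. With library totals taken into account, the summed counts of RC/- (23, of which replicate 13 gave 9) were 3.49 times those of RC/+ (4), as a description. Its 23 counts in the 5 RC/- libraries compared with 3 in the 5 RC/- D18 libraries and 13 in the 5 RC/- D53 libraries. The ratio of RC/- to RC/- D18 was 8.07 (exact 95% interval 2.44 to 42, counting error only) and that to RC/- D53 2.08 (1.01 to 4.47). The fitted log2 fold change in D18 was -1.34 ± 0.36 (adjusted p = 0.0045, limma-trend), depends on the prior count at this depth, and missed the threshold without libraries 20 to 22 (-1.05, adjusted p = 0.13). In D53 it was -0.68 ± 0.36 (adjusted p = 0.17). STAR does not assign reads that fall on more than 1 gene, and 302 of the 584 exon bases of S100a4 are shared, so its level is uncertain.

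The calprotectin pair was not among the members called lower in the edited lines. S100a8 was at 0.263, 0.671, 1.69, 0.687 and 1.1 CPM in RC/- D18 and 1.85, 2.4, 1.14, 1.17 and 2.71 CPM in RC/- D53. S100a9 was at 1.01, 0.719, 2.35, 1.63 and 2.49 CPM in RC/- D18 and 2.27, 2.65, 1.98, 2.0 and 3.5 CPM in RC/- D53. Against RC/- the groups overlapped, and neither line passed the threshold for S100a8 (0.10 ± 0.52, adjusted p = 0.9 in D18 and 1.22 ± 0.52, adjusted p = 0.079 in D53, limma-trend) or for S100a9 (0.23 ± 0.44, adjusted p = 0.71, and 0.91 ± 0.44, adjusted p = 0.12). Leaving out RC/- replicate 17 gave calls in D53 for S100a8 (1.5, adjusted p = 0.042) and S100a9 (1.22, adjusted p = 0.039), and leaving out RC/- replicate 16 gave one for S100a8 (1.48, adjusted p = 0.044). With libraries 20 to 27 as a covariate, the D53 values moved to 0.02 (adjusted p = 0.99) for S100a8 and -0.32 (adjusted p = 0.85) for S100a9.

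The medians of the calprotectin genes were higher in libraries 20 to 27, which carry the muscle transcripts, than in the other 16. S100a9 was 1.63 to 3.50 CPM in libraries 20 to 27 and 0.338 to 3.05 CPM in the other 16, with medians of 2.31 and 0.95 CPM. Of those 16, RC/- replicates 15, 16 and 17 reached into the upper range, at 1.75, 1.76 and 3.05 CPM. For S100a8 the ranges were 0.687 to 2.71 and 0.147 to 1.59 CPM, with medians of 1.43 and 0.603 CPM. Without libraries 20 to 22, the log2 fold changes of RC/- D18 against RC/- turned to -0.62 for S100a8 (adjusted p = 0.54, limma-trend) and -0.51 for S100a9 (adjusted p = 0.55). Within RC/- D18, replicates 18 and 19 had 1.01 and 0.719 CPM of S100a9 and replicates 20 to 22 had 2.35, 1.63 and 2.49 CPM. For S100a8 the same replicates had 0.263 and 0.671 CPM and 1.69, 0.687 and 1.10 CPM, with a narrow gap. Of 12 neutrophil markers, 8 were tested and the sum of the 12 was 7.45 to 11.2 CPM in libraries 20 to 27 and 4.50 to 10.9 CPM in the others. Ly6g, the defining marker, had 0 to 3 counts per library and was at 0 in all RC/+ D53 libraries, as Camp was in RC/+ and Mpo in RC/+ D18. Of the 8 tested, 2 were higher in RC/- D53 against RC/- (limma-trend), beside 2543 of all 22570 genes, and 1 was lower, beside 18.9%. The granule proteins Ngp (1.84 ± 0.51, adjusted p = 0.0077) and Camp (1.61 ± 0.44, adjusted p = 0.0064) rose, and Il1r2, a decoy receptor for interleukin 1, fell (-1.65 ± 0.34, adjusted p = 0.00066, limma-trend). In RC/- D18 against RC/-, 2 of the 8 were also higher and 1 lower, beside 3238 and 6067 of all genes. In RC/- against RC/+, as a description, 2 were higher, beside 25.5% of all genes. The part of neutrophils and of muscle transcripts in the S100a8 and S100a9 values was not tested.

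**Figure D4:**
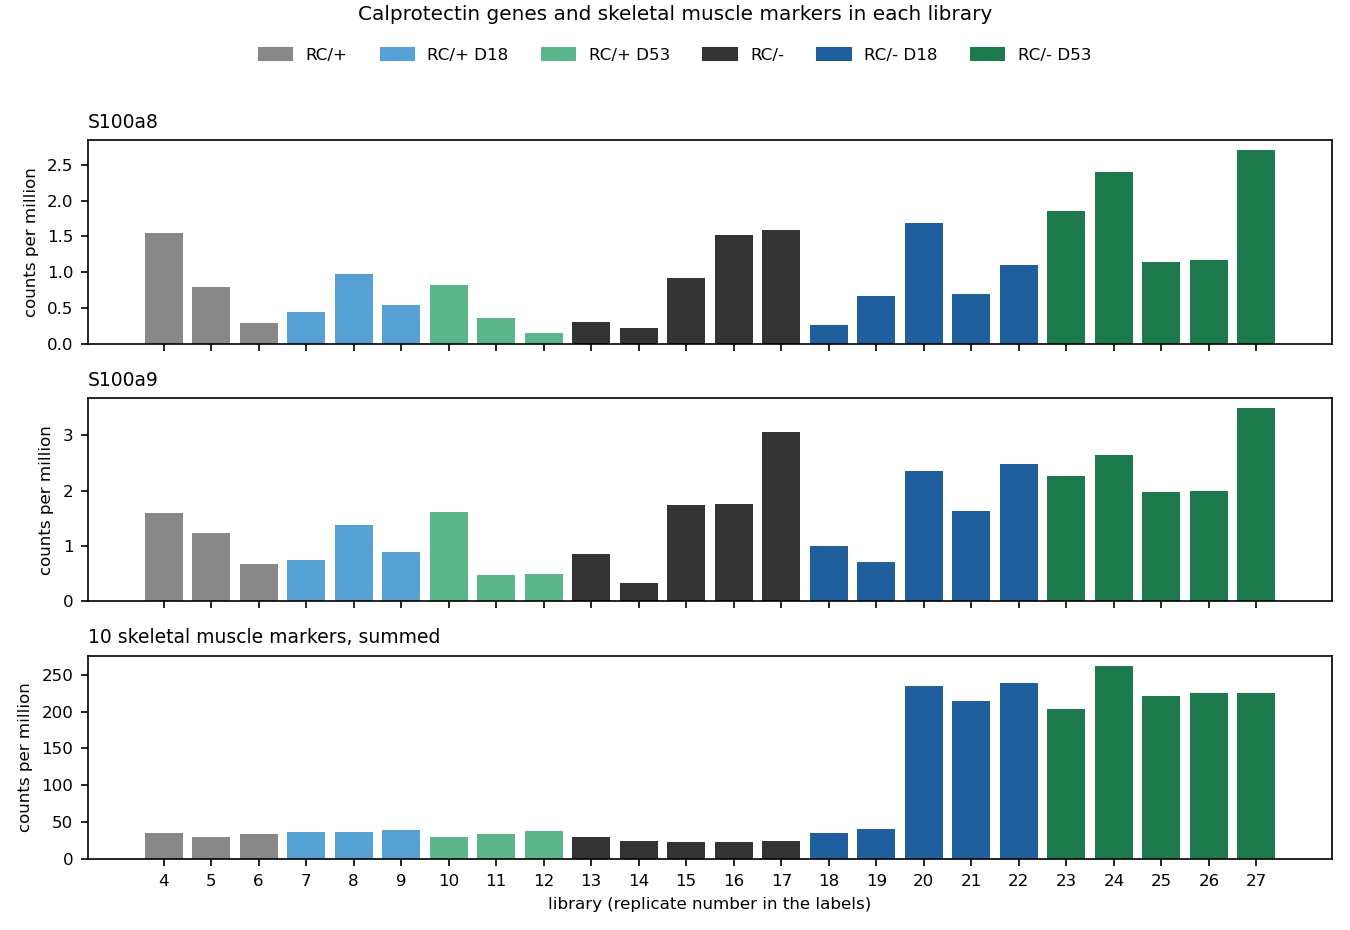
CPM of S100a8 (top), S100a9 (middle) and of 10 summed skeletal muscle markers (bottom) as bars for each of the 24 libraries, in the order of their replicate numbers and coloured by group. The muscle markers step up at library 20, from at most 41.4 to at least 203.5 CPM. S100a9 is at 1.63 CPM or more in each library from 20 to 27, but also in RC/- replicates 15, 16 and 17, at 1.75, 1.76 and 3.05 CPM.

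Within each edited line, RC/- was compared with RC/+ of the same line. The fold changes use none of the libraries on which S100a14 was selected. Their standard errors and p-values draw on the spread in all 24 libraries, those included, except with only the compared groups in the model. In the D18 line S100a14 was at 5.35, 2.85 and 5.31 CPM in RC/+ D18, below all 5 RC/- D18 kidneys, and rose by 1.30 ± 0.25 on the log2 scale (adjusted p = 0.02, limma-trend). It was the 1 member of 10 that passed, beside 0.261% of all genes tested that were higher, and the 1 without overlap, beside 3.85% of all genes. The call was lost with libraries 20 to 27 as a covariate (1.26, adjusted p = 0.14), without RC/+ D18 replicate 8 (1.0, adjusted p = 0.29), without RC/- D18 replicate 21 (1.13, adjusted p = 0.066), without libraries 20 to 22 (1.26, adjusted p = 0.12) and with only these 2 groups in the model (1.30, adjusted p = 0.19). S100a11 was at 114, 110.2 and 131 CPM in RC/+ D18, with 1 kidney inside the RC/- D18 range, and differed by 0.37 ± 0.13 (adjusted p = 0.34). S100a6 was at 46, 21.4 and 39.1 CPM in RC/+ D18 (0.39 ± 0.33, adjusted p = 0.82). The other 7 had values between -0.04 (S100a13) and 0.57 (S100a9), none past the threshold.

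In the D53 line S100a14 was at 4.02, 4.18 and 5.0 CPM in RC/+ D53, against at least 23.2 CPM in RC/- D53, and rose by 2.67 ± 0.25 on the log2 scale (adjusted p = 5.5e-07, limma-trend). S100a11 was at 126, 139 and 138 CPM in RC/+ D53, also below every RC/- D53 kidney, and rose by 0.80 ± 0.13 (adjusted p = 0.00083). These 2 of 10 members passed, beside 2.45% of all genes tested that were higher. No overlap was seen for 5 members (S100a1, S100a8, S100a9, S100a11 and S100a14), beside 8.12% of all genes. S100a6 was at 31, 28.5 and 33 CPM in RC/+ D53 and differed by 0.74 ± 0.33 (adjusted p = 0.31). S100a8 was at 0.826, 0.355 and 0.147 CPM in RC/+ D53 (2.03 ± 0.60, adjusted p = 0.074, limma-trend) and S100a9 at 1.61, 0.474 and 0.491 CPM (1.62 ± 0.50, adjusted p = 0.093). Both stayed above the threshold here and passed it in DESeq2 (adjusted p = 0.027 and 0.049) and with only these 2 groups in the model (0.013 and 0.017). With libraries 20 to 27 as a covariate they were smaller and did not pass, at 0.82 (adjusted p = 0.7) for S100a8 and 0.38 (adjusted p = 0.85) for S100a9. For S100a1, S100a4, S100a10, S100a13 and S100a16 the values lay between 0.05 and 0.20, none past the threshold.

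Markers of other cells were measured beside these results. Over all genes tested, 0.261% were higher within the D18 line and 2.45% within the D53 line by limma-trend. Of 9 collecting duct markers, 2 rose in the D18 line (Gata3, 0.77 ± 0.12, adjusted p = 0.0021, and Hsd11b2, 0.76 ± 0.15, adjusted p = 0.033, limma-trend) and 5 in the D53 line. Their summed level was 1167 to 1788 CPM in RC/+ D18, 1419 to 1830 CPM in RC/- D18, 1038 to 1226 CPM in RC/+ D53 and 1858 to 3103 CPM in RC/- D53. Of 13 macrophage and monocyte markers, 8 rose in the D53 line and 0 in the D18 line (0 also by edgeR and DESeq2, with 3 at an unadjusted p below 0.05 by each of the 3 tools). Of the 10 skeletal muscle markers, 1 rose in D18 by limma-trend, 8 by edgeR and 9 by DESeq2, with 9 at an unadjusted p below 0.05 by each, and in D53 9, 9 and 10 rose. No collecting duct or macrophage gene was at 0 in these groups, the muscle gene Ckm was at 0 in RC/+ D18, and the part of these markers in the values of S100a14 and S100a11 was not tested.

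RC/- D53 was compared with RC/- D18, which asks whether the edited cystic kidneys differ between the lines. S100a14 was higher in all 5 RC/- D53 kidneys than in all 5 RC/- D18 kidneys (1.39 ± 0.22, adjusted p = 0.0047, limma-trend), and S100a11 likewise (0.62 ± 0.12, adjusted p = 0.017). These were the 2 of 10 members past the threshold, beside 0.244% of all genes tested that were higher, and the 2 without overlap, beside 1.94%. S100a11 missed it without RC/- D18 replicate 22 (0.54, adjusted p = 0.078), without RC/- D53 replicate 25 (0.60, adjusted p = 0.066) and with only these groups in the model (0.62, adjusted p = 0.067). S100a16 (0.31 ± 0.08, adjusted p = 0.12) passed in DESeq2 alone (adjusted p = 0.034). The remaining 7 had log2 fold changes of 0.08 (S100a1) to 1.12 (S100a8), none past the threshold. Among the collecting duct markers, Scnn1g (0.60 ± 0.10, adjusted p = 0.0091) and Gata3 (0.47 ± 0.10, adjusted p = 0.044, limma-trend) were also higher in RC/- D53.

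Whether the cystic difference within a line differed between D53 and D18 was tested as a contrast of 4 groups. No gene passed it in limma-trend (0% of genes tested, 884 at an unadjusted p below 0.05), edgeR or DESeq2, so 0 of 10 members did. S100a14 had a difference of 1.38 ± 0.35 and S100a11 of 0.43 ± 0.19 on the log2 scale, both with an adjusted p of 1 in limma-trend, and S100a8 had 1.76 ± 0.85. These 3 were at an unadjusted p below 0.05 in limma-trend, and S100a11 and S100a14 also in edgeR and DESeq2.

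In control kidneys without the motif, no member passed the threshold. RC/+ D18 against RC/+ gave log2 fold changes of -0.46 (S100a6) to -0.00 (S100a13), and 0.00443% of all genes tested passed in either direction. RC/+ D53 against RC/+ gave -0.84 (S100a8) to 0.28 (S100a4), and 0% of genes passed. S100a10 was at 86.4, 100.2 and 113 CPM in RC/+ D18 and 102, 127 and 127 CPM in RC/+ D53, and S100a16 at 101, 97.1 and 107 and 108, 122 and 126 CPM. S100a1 was at 179, 162 and 158 CPM in RC/+ D18 and 173, 171 and 181 CPM in RC/+ D53, and S100a13 at 22.9, 21.1 and 25.5 and 19.5, 19.7 and 24.8 CPM. For these 4 genes both edited control groups overlapped RC/+. S100a8 was at 0.435, 0.978 and 0.536 CPM in RC/+ D18, S100a9 at 0.740, 1.39 and 0.893 CPM, and S100a4 at 2, 0 and 0 counts there and 6, 2 and 0 counts in RC/+ D53. In both lines 0 members had an unadjusted p below 0.05 in limma-trend, edgeR or DESeq2. S100a11 lay below all RC/+ kidneys in both lines and S100a6 in RC/+ D53, so 1 member did not overlap in D18, beside 5.07% of genes that were lower, and 2 in D53, beside 3.89%. Both comparisons share the RC/+ libraries, which for S100a11 spanned only 142 to 147 CPM.

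**Figure D5:**
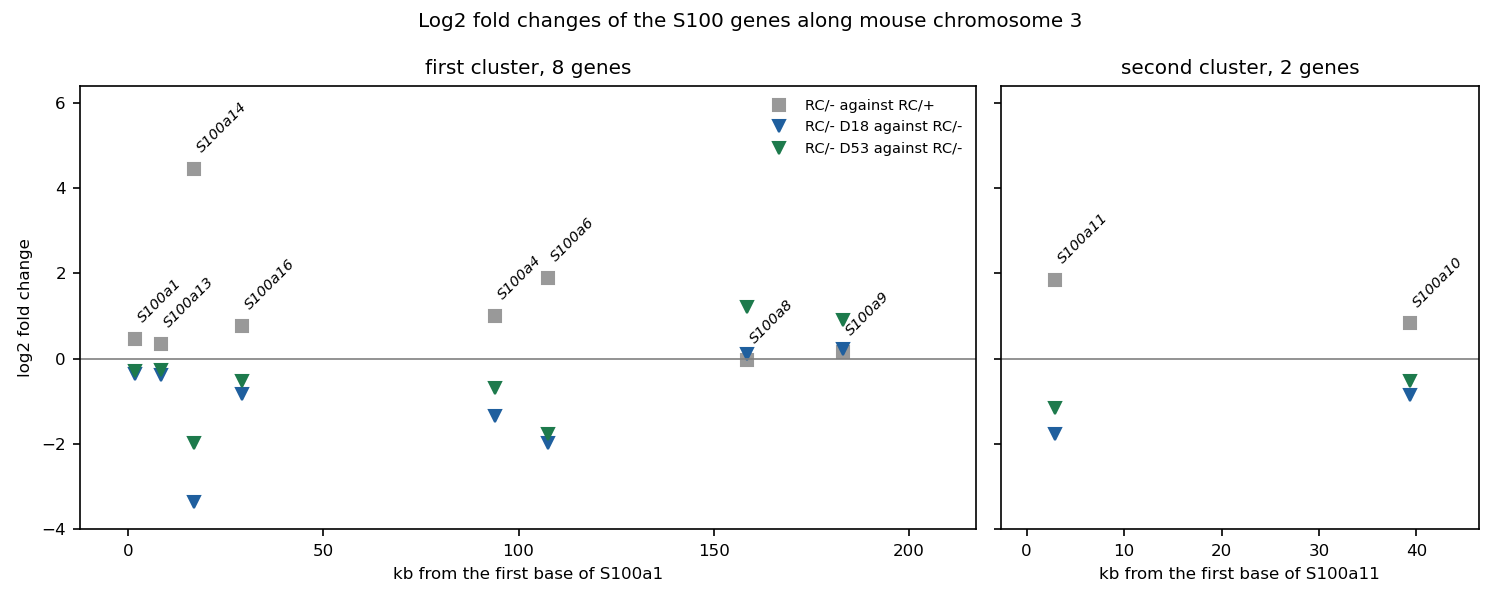
Log2 fold changes of the 10 S100 genes at their midpoints along the 2 clusters of chromosome 3, in kilobases from the first base of S100a1 (left) and S100a11 (right), for RC/- against RC/+ (squares) and for RC/- D18 and RC/- D53 against RC/- (triangles), which share the RC/- libraries. Neighbours differ, with S100a13 at 0.34 beside S100a14 at 4.46, and S100a8 and S100a9 at the end of the first cluster are the members that do not lie below 0 in the edited lines, although in D18 they turned to -0.62 and -0.51 without libraries 20 to 22.

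Across mice of the same group, some members went up and down together. Over the 24 libraries, Pearson's r of the deviations of log2 CPM from the group means was 0.87 for S100a11 with S100a16, 0.87 for S100a8 with S100a9, 0.83 for S100a10 with S100a16 and 0.76 for S100a10 with S100a11. The points share library totals and the muscle transcripts of libraries 20 to 27, and the values are a description. For S100a11 with S100a14, the r was 0.68. RC/- D53 replicate 27 was the highest of its group for 9 of the 10 members, all but S100a4, and without it S100a14 in the D53 line had a log2 fold change of 2.56 and S100a11 of 0.68.

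The genes most like S100a14 over the 24 libraries, by Pearson's r of log2 CPM among tested genes outside the S100 family, were Lgals3, which encodes galectin-3 (r = 0.98), Degs2, a sphingolipid desaturase and hydroxylase (0.98), and Neurl1a (0.98). Such an r includes the difference of RC/- from RC/+ on which S100a14 was selected, and is a description. Lgals3 was at a mean of 63.5 CPM in RC/+ and 363 CPM in RC/-. Within groups their r with S100a14 was 0.64, 0.58 and 0.62. For S100a8 they were Prg2, an eosinophil granule protein (0.71), Vat1l (0.70) and Gm11703 (0.69), and for S100a4 Uevld (0.79), Gm12923 (0.77) and Tlr5 (0.76). The last 2 sets rest on small counts.

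Outside the members, 8 further S100 genes are in the table, of which S100a2 and S100a7l2 were too low to be tested. S100g was lower in every RC/- kidney than in RC/+, at 644, 883 and 638 CPM in RC/+ and 248, 256, 258, 157 and 190.5 CPM in RC/- (-1.71 ± 0.14). In RC/- D18 it was 680.1, 748, 625, 540.4 and 549.5 CPM and in RC/- D53 675, 651, 569, 615 and 697 CPM, all above RC/-, and it rose against RC/- in D18 (1.52 ± 0.12, adjusted p = 1.2e-09, limma-trend) and D53 (1.55 ± 0.12, adjusted p = 5.6e-09). In RC/+ D18 it was 811, 945 and 855 CPM, above every RC/- D18 kidney. The RC/+ D53 kidneys, at 709, 658 and 729 CPM, overlapped RC/- D53. S100a3, with 3 to 9 counts in RC/- and 0 to 2 in RC/+, had a log2 fold change of 1.57 ± 0.39, S100z, with 0 to 5 counts in RC/- and 3 to 5 in RC/+, -0.81 ± 0.44 and S100a7a 0.30 ± 0.44. Within the edited lines 0 of the 6 passed by limma-trend, edgeR or DESeq2, with 2 at an unadjusted p below 0.05 by each tool in D18 and 0, 1 and 0 in D53.

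Known partners and receptors of S100 proteins (16 genes, all tested) were described in the same way. Anxa2, the partner of S100a10, was at 191.5 to 225 CPM in RC/+ and 456 to 562 CPM in RC/- (1.29 ± 0.12). The largest difference was that of Ahnak, a giant scaffold that binds the S100a10 and annexin A2 complex, at 168 to 188 CPM in RC/+ and 526 to 707 CPM in RC/- (1.78 ± 0.13), followed by Anxa1 (1.67 ± 0.15), Anxa2 and Myh9 (1.08 ± 0.10), a nonmuscle myosin. Against RC/-, 9 of the 16 were lower in D18, beside 26.9% of all genes, and 8 in D53, beside 18.9%. In each comparison 2 were higher, beside 3238 of the 22570 genes tested in D18 and 2543 in D53. Within the D53 line Ahnak (0.86 ± 0.13, adjusted p = 0.00019), Anxa1 (0.61 ± 0.15, adjusted p = 0.025) and Anxa6 (0.37 ± 0.08, adjusted p = 0.0056, limma-trend) rose. They were 3 of the 16, beside 2.45% of all genes tested that were higher. Within the D18 line 0 of the 16 passed by limma-trend, edgeR or DESeq2, with 2 at an unadjusted p below 0.05 by each tool.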

How the data were processed

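RNA was sequenced from the right kidney of each mouse. The authors trimmed reads with Trim Galore 0.6.3 and aligned them to GRCm38 with STAR 2.5.3a, and the deposited values are raw counts per gene from STAR for Ensembl release 94 (the strand column used is not given in the sources used here). Library totals of 20.4 to 30.8 M counts leave at most 97 counts per library for S100a4, S100a8 and S100a9. The 39 pairs of libraries within groups differed by more than sampling noise (chi-square per degree of freedom 8.45 to 48.2). By sex-linked genes, 14 mice were female and 10 male.

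Tested were the 22570 of 54532 genes whose mean log2 CPM was -3 or more, with limma 3.58.1 in R 4.3.3 on log2 CPM from total counts (prior count 2), with 1 mean for each of the 6 groups, trended variance and Benjamini-Hochberg adjustment over all genes tested. The script was first tested on simulated data with known changes. Alternatives were edgeR 4.0.16, DESeq2 1.42.0, TMM and size factors, no filter, a prior count of 0.5, libraries 20 to 27 or sex as a covariate, only the compared groups, and leaving out each mouse. Leaving out libraries 20 to 22 was added after the data were seen. P-values measure the spread between mice, each edited line being from 1 founder. The members and gene lists were chosen with earlier results of these data known. All members were named. Of the other S100 genes and partners, those past the threshold within an edited line or the 4 with the largest change in RC/- against RC/+ were named, and the 3 genes closest to S100a14, S100a4 and S100a8 by Pearson's r. Ngp, Camp, Il1r2, Gata3, Hsd11b2, Scnn1g and the gene neighbours in rank of S100a14 were named after their values were seen. Gene positions and exon lengths are from GENCODE M21 (GRCm38), later than the gene models the authors counted on.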

Additional observations from a re-analysis of the deposited data

Results flagged for a closer look

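In 30 groups of 5 libraries (10 genes in the 3 cystic groups), 4 had 1 library far from the others by Dixon's gap, where chance gives about 1 in 20. S100a4 was at 0.385 CPM in RC/- replicate 13, with the next at 0.169 CPM (gap over range 0.81), on 9 counts against 3 or 4. S100a14 was at 17.1 CPM in RC/- D18 replicate 21, with the next at 10.8 CPM (0.74), and its call within the D18 line was lost without that library (1.13, adjusted p = 0.066, limma-trend). RC/- D53 replicate 27 stood apart for S100a6 (117 against 54.9 CPM, 0.72) and for S100a13 (32.4 against 24.2 CPM, 0.77). Without it S100a13 passed in RC/- D53 against RC/- (-0.37, adjusted p = 0.0054, limma-trend).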

How the results depend on the processing

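For members called in at least 1 setting, and for S100a8 and S100a9 in the cystic comparisons, 617 of 669 recomputed values over 36 results kept their direction and side of the threshold, 25 lost a call, 11 gained one and 16, of S100a8 and S100a9, changed sign. Outside these, uncalled values also changed sign in some settings, for S100a4, S100a10 and S100a13 in RC/- D18 against RC/+ D18, S100a4 in RC/- D53 against RC/+ D53 and S100a6 in RC/- D53 against RC/- D18, among others. With S100a14 included, the count of members changed in RC/- D53 against RC/- went from 6 to 3 with libraries 20 to 27 as a covariate. In RC/- D18 against RC/+ D18 it went from 1 to 0 with that covariate, with only the compared groups and without libraries 20 to 22, and was 0 to 1 when each mouse was left out. In RC/- D53 against RC/+ D53 it went from 2 to 4 with DESeq2 and with only the compared groups. In RC/- D53 against RC/- D18 it went from 2 to 1 with only the compared groups, and was 1 to 2 when each mouse was left out. Calls over all genes tested moved too. For RC/- D53 beside RC/- they fell from 6805 to 1796 with the covariate. Calls inside the D18 line fell from 60 to 11 with the covariate. They were 12 with only the compared groups and 2 without libraries 20 to 22. Those inside the D53 line rose from 587 to 880 with DESeq2 and to 772 with only the compared groups. Between the edited cystic groups they went from 60 to 62 with only the compared groups, to 163 with the covariate and to 288 with DESeq2. There they were 23 without RC/- D18 replicate 22 and 19 without RC/- D53 replicate 25. The cause of these changes was not tested. S100a8 in RC/- D18 against RC/- was -0.03 with DESeq2, -0.02 with edgeR, -0.62 with the covariate and -0.62 without libraries 20 to 22, and -0.26 to 0.42 when each mouse was left out. S100a9 there was -0.51 with the covariate and without those libraries, and -0.18 to 0.54 when each mouse was left out. In RC/- D53 against RC/- S100a9 was -0.32 with the covariate. In RC/- D18 against RC/+ D18, S100a8 was -0.45 and S100a9 -0.18 both with the covariate and without libraries 20 to 22. The covariate is estimated from the RC/- D18 libraries alone. No paired analysis was possible because the groups share no replicate numbers. Values of fewer than about 100 counts are limited by depth, S100a4 most of all.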
